A study of Mus musculus with 56 samples.

Results

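Levels of 8 genes that textbooks list as targets of canonical Wnt signalling were followed through mouse mammary tumor cells treated with Wnt3a or TGFβ: Myc, Ccnd1, Sox4, Tbx3, Cd44, Ephb2, Ephb3 and Glul. They were chosen by name, with earlier results of these data known. All 8 were found among the 20314 genes of the expression table and passed the filter on low values that left 13754 genes for testing. The cells were lines from mammary tumors of female MMTV-PyMT mice of the FVB/N strain aged 12 weeks, in which the viral polyoma middle T oncogene is driven by a mammary promoter, so all groups carry this transgene. Each line carried 1 of 7 genotypes of the β-catenin gene: fl/fl with a pair of floxed alleles, D164A/fl, ΔC/fl and dm/fl with a mutant and a floxed allele, and D164A/-, ΔC/- and dm/- with the floxed allele removed by an adenovirus that carries Cre recombinase and GFP, by which the infected cells were sorted. In 1 experiment each genotype was left untreated or given 100 ng/ml Wnt3a for 3 days, and in the other it was left untreated or given 2 ng/ml TGFβ for 4 days. With 2 replicates each, this gave 28 conditions and 56 RNA-seq libraries. The methods call the replicates biological duplicates and mention a pair of fl/fl lines in another assay, without saying whether the duplicates sequenced were separate tumor lines or separate cultures of 1 line, so the p-values measure the spread between these samples, and genotype and cell line cannot be told apart.

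In canonical Wnt signalling a Wnt ligand such as Wnt3a binds Frizzled and LRP receptors, the complex that marks β-catenin for destruction is inactivated, and β-catenin enters the nucleus, where it joins TCF/LEF factors at target genes. Some targets, such as the scaffold gene Axin2, feed back on the pathway and respond in most tissues. Others were described in particular tissues: Myc, a transcription factor of growth, Ccnd1, the cyclin that brings CDK kinases to the retinoblastoma protein, the adhesion receptor Cd44 and the ephrin receptors Ephb2 and Ephb3 in intestine and colon tumors, Glul, which makes glutamine, around the central vein of the liver, and the transcription factors Sox4 and Tbx3 in several tumors and embryonic tissues. The comparison asks whether any of them followed Wnt3a in these lines.

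The sequences before the start sites of Glul and Ephb2 are shown because Glul was the member past the test with Wnt3a and Ephb2 the member past it with TGFβ in every genotype. They are the 250 bases upstream of a RefSeq start site (assembly GRCm38.p6), for Glul chr1:153899679-153899928 on the plus strand and for Ephb2 chr4:136836013-136836262 on the minus strand, written 5′ to 3′ in lower case, with capitals reserved for a motif match, of which there was none. The start site used for Ephb2, like those for Ephb3 and Cd44, lies inside the gene's annotated span and not at its outermost end.
Glul: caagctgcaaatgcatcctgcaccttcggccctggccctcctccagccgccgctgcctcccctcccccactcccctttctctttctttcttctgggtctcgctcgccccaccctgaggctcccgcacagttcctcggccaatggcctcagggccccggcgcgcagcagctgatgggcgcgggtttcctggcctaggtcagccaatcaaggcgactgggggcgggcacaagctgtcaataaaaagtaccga
Ephb2: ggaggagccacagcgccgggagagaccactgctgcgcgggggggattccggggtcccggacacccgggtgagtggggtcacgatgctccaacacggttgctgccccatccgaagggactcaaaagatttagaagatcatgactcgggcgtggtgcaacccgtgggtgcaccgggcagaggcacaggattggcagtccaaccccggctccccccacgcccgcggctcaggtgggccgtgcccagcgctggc
The TCF/LEF motifs CTTTGAT and CTTTGAA and the SMAD motif CAGACA were searched on both strands. Of 32851 promoter windows of this length, 7.48% held either TCF/LEF motif and 17.1% held CAGACA. The windows of Glul, Ephb2, Ephb3, Cd44, Sox4 and Axin2 held neither TCF/LEF motif, and Sox4 held CAGACA once, on the opposite strand, 41 bases before its start site. A window without a match says only that these letters are not in it.

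By the RefSeq annotation of GRCm38, Myc (Entrez ID 17869) lies at chr15:61985341-61990361, Ccnd1 (12443) at chr7:144929931-144939831, Sox4 (20677) at chr13:28948919-28953699, Tbx3 (21386) at chr5:119670534-119684724, Cd44 (12505) at chr2:102811141-102901669, Ephb2 (13844) at chr4:136647536-136836326, Ephb3 (13845) at chr16:21204620-21223309 and Glul (14645) at chr1:153899929-153909723. In the GENCODE annotation, exons on the opposite strand overlap those of Sox4 (Gm26735, 2616 bases), Ccnd1 (LTO1, 1100 bases), Glul (Teddm2, 116 bases) and Tbx3 (Tbx3os1, 115 bases), and whether the counting used strand was not stated, so reads of these partners cannot be told apart from the members' own.

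Libraries held 22.4 to 33.7 M reads assigned to genes, and 3 reads, taken as the floor of detection, were worth 0.0917 to 0.146 CPM. CPM are reads of a gene, scaled by the authors to library size with a further factor per library. Cells of every library expressed the epithelial genes Krt8 (167 to 3370 CPM), Krt18 (369 to 4100 CPM), Epcam (75.3 to 713 CPM) and Cdh1 (49.9 to 1050 CPM). The other epithelial genes listed varied more: Krt14 was at 7.99 to 2690 CPM, and Krt5 was under 1 CPM in 29 libraries and reached 974 CPM. Of the fibroblast genes, Lum stayed under 1 CPM in all 56 libraries, Dcn in 50 and Col1a2 in 40, while Pdgfra was at 2.71 to 302 CPM and Col1a1 at 0.221 to 70.9 CPM. Of the leukocyte genes, Ptprc stayed under 1 CPM in all 56 libraries, while the macrophage genes Csf1r and Cd68 reached 530 and 79.4 CPM. Of the endothelial genes, Kdr was under 1 CPM in all 56, Pecam1 in 54 and Cdh5 in 49. Total Ctnnb1, the β-catenin gene, had medians of 773 to 1870 CPM in the 7 genotypes, and a gene total does not show which allele was transcribed. Replicates correlated at r = 0.833 to 0.995 across genes on the log2(CPM + 1) scale. The lowest value was that of untreated dm/fl cells in the Wnt3a experiment, where replicate 1 correlated best with an untreated ΔC/fl library (r = 0.899) and at most at 0.876 with a library of its own genotype. In 54 of 56 libraries the closest library was of the same genotype. The other exception was untreated D164A/fl replicate 2 of the Wnt3a experiment. It correlated best with an untreated D164A/- library (r = 0.973) and at most at 0.961 with its own genotype. Replicate 1 of untreated dm/fl held 318 CPM of Myc, 146 CPM of Cd44, 153 CPM of Sox4 and 141 CPM of Ephb3, against 100 CPM, 552 CPM, 18.4 CPM and 24.2 CPM in replicate 2. Results that rest on this dm/fl library are therefore also given without it. Without replicate 1, 43 genes passed the test for Wnt3a in dm/fl, and without replicate 2, 5875 genes did.

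Axin2 was measured first, as the most general Wnt target, to check the treatment. In fl/fl cells it was at 0.252 and 0.652 CPM without and 121 and 51.0 CPM with Wnt3a, and in D164A/fl cells at 1.18 and 1.66 CPM without and 154 and 149 CPM with Wnt3a. It rose in 6 of 7 genotypes, by 5.79 (SE 0.49) in fl/fl, 5.98 in D164A/fl, 5.08 in D164A/-, 4.93 in ΔC/fl, 2.84 in ΔC/- and 5.15 in dm/fl on the log2(CPM + 1) scale (limma, n = 2 against 2, adjusted p of 5.2e-11 to 0.011). In such bulk RNA, a smaller number of responding cells and a smaller response per cell cannot be told apart. The call in ΔC/- did not hold with edgeR on the reads (adjusted p = 0.17). In dm/- cells Axin2 was at 0 CPM in both untreated libraries and at 0 and 0.0791 CPM with Wnt3a, which is under the floor of 3 reads. The Axin2 response differed among the genotypes (moderated F test, adjusted p = 1.0e-06).

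Of the 8 members, only Glul passed any test with Wnt3a. A test was counted as passed at an adjusted p of at most 0.05 with at least a 2-fold change on the log2(CPM + 1) scale. Of the 56 tests, 8 genes in 7 genotypes, 1 passed: Glul in D164A/fl cells. Over all genes and genotypes 0.862% of tests passed, 0.559% upward and 0.303% downward, so the members' share of 1.79% came from a single test. In D164A/fl cells alone, 1 of 8 members and 4.15% of all genes passed. At an adjusted p of at most 0.05 with no limit on size the count was again 1 of 56, against 1.1% of all tests, and 6 of 56 had an unadjusted p under 0.05. Both treated libraries lay above both untreated ones in 14 of the 56 comparisons and below them in 2, against 12.6% and 12.3% of all comparisons. The precision was limited: on the log2(CPM + 1) scale the 95% interval excluded a 4-fold increase in all 56 comparisons. It excluded a 2-fold increase in only 27 of them and a 2-fold change in either direction in 15. Where a gene lay far under 1 CPM, the added 1 CPM shrinks any change, so the interval cannot exclude such folds. This holds for Tbx3 in fl/fl and D164A/- and for Ephb2 in dm/-, D164A/fl and D164A/-. For Ephb2, edgeR on the reads gave a log2 change of 1.99 in D164A/fl (adjusted p = 0.17) and 1.54 in D164A/-, neither past the test. None of the 8 genes passed the test for a Wnt3a response that differs among genotypes (moderated F test, adjusted p of 0.68 to 1, unadjusted p under 0.05 for 0 of 8), against 2.39% of all genes, and edgeR on the reads also called 0 of 8. With the replicate number as a block, 1 of 8 passed, Ccnd1.

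**Figure D1:**
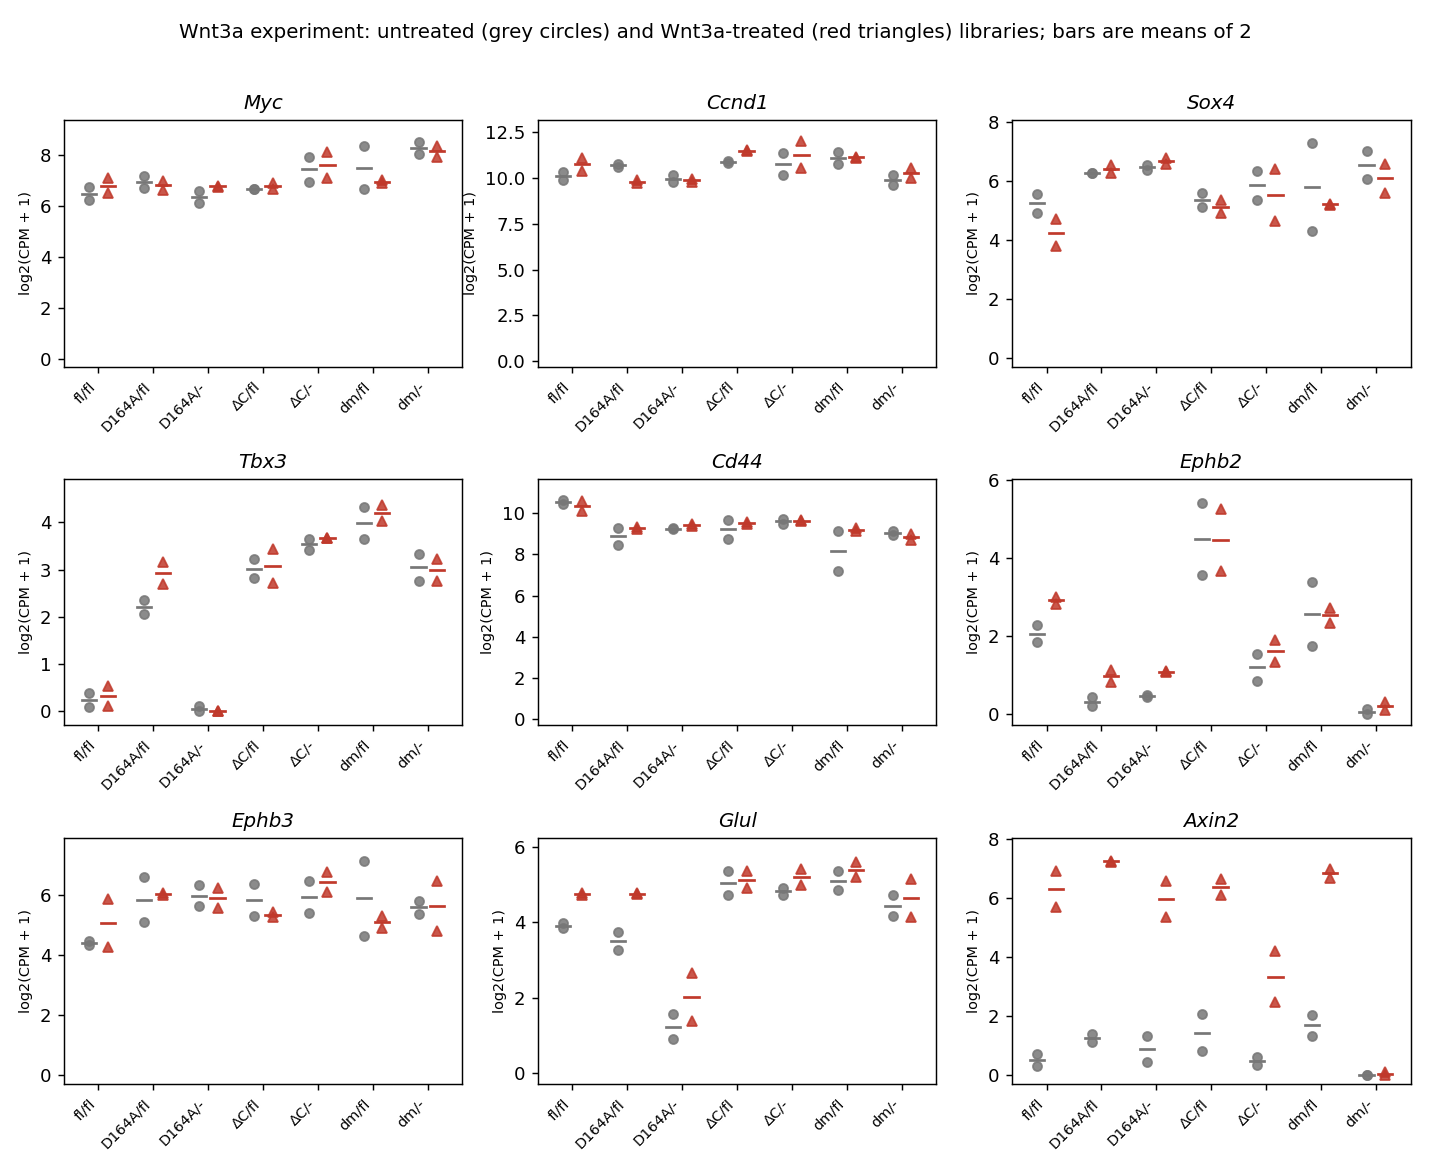
Level of the 8 genes and of Axin2 in the 28 libraries of the Wnt3a experiment, as log2(CPM + 1) on the vertical axis and by genotype on the horizontal axis, with grey circles for untreated and red triangles for Wnt3a-treated libraries and bars for the mean of 2. Axin2 separates by treatment in 6 of 7 genotypes, while among the 8 genes only Glul in D164A/fl passed the test.

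Glul, the glutamine synthetase gene, rose with Wnt3a in D164A/fl cells and in the mean over genotypes. In D164A/fl cells it was at 8.64 and 12.3 CPM without and 26.4 and 25.9 CPM with Wnt3a, a rise of 1.26 on the log2 scale (SE 0.35, 95% interval 0.54 to 1.98, adjusted p = 0.027). In fl/fl cells the untreated libraries were closer together than in D164A/fl, at 14.8 and 13.5 CPM, with 25.5 and 26.4 CPM after Wnt3a. The log2 difference of 0.84 (SE 0.35) there had an adjusted p of 0.29. In both lines the treated libraries were clear of the untreated ones. The summed level of the leukocyte genes Ptprc, Cd68 and Csf1r was also higher with Wnt3a there, at 13.7 to 20.8 CPM against 3.34 to 5.59 CPM in D164A/fl and at 103 to 141 CPM against 52.9 to 58.4 CPM in fl/fl, with Ptprc, the defining gene, at most at 0.208 CPM in any library, and its part in the result was not tested. In D164A/- cells, where Glul was scarce, it was at 0.875 and 1.94 CPM without and 1.59 and 5.29 CPM with Wnt3a, and the groups overlapped.

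In the ΔC and dm lines the Glul values overlapped or nearly did. In ΔC/fl cells they were 25.5 and 40.4 CPM without and 29.0 and 40.6 CPM with Wnt3a, and in ΔC/- cells 25.6 and 29.2 CPM without and 30.9 and 42.1 CPM with Wnt3a. In dm/fl cells they were 40.0 and 28.2 CPM without and 35.9 and 47.8 CPM with Wnt3a, and in dm/- cells 16.9 and 25.5 CPM without and 16.9 and 34.5 CPM with Wnt3a. The ΔC/- groups did not overlap, the other 3 did. All 7 genotypes had a higher mean with Wnt3a, as did 2.02% of all genes, and the mean response over the 7 genotypes was 0.55 (SE 0.13, 95% interval 0.28 to 0.82, adjusted p = 0.011), where 3.52% of all genes passed (2.21% upward and 1.31% downward). Its adjusted p lay between 0.00044 and 0.12 over the other ways of processing, the highest from a fit to the Wnt3a libraries alone. Without the dm/fl library that stood apart the mean response was 0.59 (adjusted p = 0.0069). The single call in D164A/fl was lost with edgeR on the reads (adjusted p = 0.068), with a pseudocount of 0.1 (0.076), with the Wnt3a libraries alone (0.18), and without untreated replicate 1 (log2 change 1.03, adjusted p = 0.29), treated replicate 1 (1.25, 0.17) or treated replicate 2 (1.27, 0.15). Over all alternatives its adjusted p lay between 0.00052 and 0.18. Glul is also on the study's list of Wnt3a-regulated genes that were affected both by the D164A mutation and by a mutation of Bcl9 and Bcl9L, whose lines are not among these samples. Since the list rests in part on these samples, it is no independent evidence of the direction.

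Myc, the growth regulator, passed no test with Wnt3a. It was at 105 and 72.6 CPM without and 133 and 88.2 CPM with Wnt3a in fl/fl cells, at 143 and 102 CPM and then 125 and 97.9 CPM in D164A/fl, and at 66.8 and 94.5 CPM and then 104 and 109 CPM in D164A/-. Only in D164A/- were both treated libraries above both untreated ones. In ΔC/fl cells it was at 99.5 and 100 CPM without and 99.8 and 119 CPM with Wnt3a, in ΔC/- at 240 and 121 CPM and then 272 and 133 CPM, and in dm/- at 354 and 261 CPM and then 240 and 323 CPM. These groups overlapped in each line. Taken by replicate number, Myc was higher with Wnt3a in both replicates of fl/fl, D164A/-, ΔC/fl and ΔC/-. It was lower in both of D164A/fl and of both signs in dm/fl and dm/-. In dm/fl cells the untreated libraries stood at 318 and 100 CPM around treated values of 126 and 119 CPM. The log2 differences ran from -0.55 in dm/fl to 0.42 in D164A/-, each with an SE of 0.48. The mean over the 7 genotypes was 0.03 (SE 0.18, 95% interval -0.34 to 0.39, adjusted p = 1), which leaves out a mean rise above 1.31-fold on this scale. Without dm/fl untreated replicate 1 the mean was 0.15 (adjusted p = 0.72). Without replicate 2 instead, Myc passed as lower with Wnt3a in dm/fl (log2 change -1.37, adjusted p = 0.032).

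Ccnd1, which encodes cyclin D1, had differences of both signs, none of which passed. It was at 1750 and 1574 CPM without and 837 and 946 CPM with Wnt3a in D164A/fl cells, a log2 difference of -0.90 (SE 0.38, adjusted p = 0.24). In ΔC/fl cells it was at 1975 and 1801 CPM without and 2937 and 2901 CPM with Wnt3a (0.63, adjusted p = 1), and in fl/fl cells at 1269 and 972 CPM and then 2228 and 1358 CPM (0.65, adjusted p = 0.47). The treated libraries were clear of the untreated ones in all 3 of these lines, downward in the first and upward in the others. In D164A/- cells the values were 890 and 1147 CPM without and 888 and 1006 CPM with Wnt3a, in ΔC/- 1155 and 2675 CPM and then 1508 and 4143 CPM, in dm/fl 2714 and 1756 CPM and then 2277 and 2238 CPM, and in dm/- 791 and 1147 CPM and then 1013 and 1512 CPM. Each of these 4 pairs of groups overlapped. Taken by replicate number, Ccnd1 was higher with Wnt3a in both replicates of ΔC/- and dm/-. It was lower in both of D164A/- and of both signs in dm/fl. The mean over genotypes was 0.17 (SE 0.14, 95% interval -0.12 to 0.47, adjusted p = 0.82), and the F test of a difference among genotypes gave an adjusted p of 0.68. This test passed with the replicate number as a block (adjusted p = 0.0029) and with the GC trend removed as well (0.0013), although the numbers were not shown to pair the samples throughout. Over all alternatives the adjusted p of Ccnd1 lay between 0.00032 and 0.60 in D164A/fl (log2 difference -0.92 to -0.85) and between 0.031 and 0.83 in fl/fl (0.47 to 0.66), each under the 2-fold limit.

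Of the transcription factor genes, Sox4, an HMG-box factor, and Tbx3, a T-box repressor, passed no test with Wnt3a. In fl/fl cells Sox4 was at 46.2 and 29.2 CPM without and 12.7 and 24.8 CPM with Wnt3a, a log2 difference of -1.0 (SE 0.59, adjusted p = 0.47). Its mean response was -0.33 (SE 0.22, adjusted p = 0.72), and -0.11 without the dm/fl library that stood apart. Without the other untreated dm/fl replicate Sox4 passed as lower with Wnt3a in dm/fl (-2.07, adjusted p = 0.0043). Tbx3 was at 3.17 and 4.11 CPM without and 5.49 and 7.93 CPM with Wnt3a in D164A/fl cells, where the groups did not overlap (log2 difference 0.72, SE 0.26, adjusted p = 0.12). In the other 6 genotypes its log2 difference lay between -0.06 and 0.22, and its mean response was 0.16 (SE 0.10, adjusted p = 0.64). In D164A/- cells Tbx3 was at 0 in 7 of 8 libraries and at 2 reads in the other, so no fold can be given there.

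Among the cell surface genes, the hyaluronan receptor Cd44 had its largest difference in dm/fl cells, with 146 and 552 CPM without and 557 and 615 CPM with Wnt3a (log2 difference 1.04, SE 0.35, adjusted p = 0.21). It rested on the library that stood apart: without it the difference was 0.08, and without the other untreated replicate it was 1.99 (adjusted p = 1.1e-05). In the other genotypes Cd44 differed by -0.21 to 0.42. Ephb2, a receptor tyrosine kinase that sorts cells by repulsion, was at 0.337 and 0.144 CPM without and 0.752 and 1.19 CPM with Wnt3a in D164A/fl cells, at 0.401 and 0.338 CPM and then 1.12 and 1.09 CPM in D164A/-, and at 3.85 and 2.57 CPM and then 7.03 and 6 CPM in fl/fl. The treated libraries were clear of the untreated ones in these 3 lines and overlapped them in the other 4. No single test passed (log2 differences of 0.62 to 0.85 in the 3 lines, adjusted p of 0.45 to 1). The mean response of Ephb2 was 0.38 (SE 0.18, adjusted p = 0.43). At a pseudocount of 0.1, which weighs low values more, it was 0.80 and passed (adjusted p = 0.044, against 0.044 to 0.89 over all alternatives). Its relative Ephb3 had a mean response of 0.01 (SE 0.22, 95% interval -0.45 to 0.46), and its treated and untreated libraries overlapped in all 7 genotypes. Without untreated dm/fl replicate 2 it passed as lower in dm/fl (-2.04, adjusted p = 0.0086), whereas without replicate 1 its log2 difference there was 0.45.

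Other Wnt target genes were looked at beside the members. Their list was chosen with earlier results of these data known, so it is no independent yardstick. Of 54 such genes, 19 of the feedback and pathway kind and 35 described in particular tissues, 42 passed the filter. For the mean response over the 7 genotypes 7 of 15 feedback genes rose and none fell, while of 27 tissue genes 3 rose and 2 fell. Over all genes tested, 2.21% rose and 1.31% fell. The median mean response was 0.33 for the feedback genes, 0.05 for the tissue genes, 0.17 for the 8 members and -0.005 for all genes tested. Beside Axin2, the Wnt-induced transcription factor gene Tcf7 rose in 3 genotypes (log2 change of 2.05 in fl/fl, 1.18 in ΔC/fl and 1.34 in dm/fl), and was 1.21 in dm/- at an adjusted p of 0.24. The ubiquitin ligase gene Rnf43 (2.64 and 1.44), the protease gene Mmp7 (2.80 and 1.68), the receptor gene Tnfrsf19 (1.32 and 1.46) and the secreted inhibitor gene Wif1 (1.14 and 1.35) each rose in D164A/fl and D164A/-. Rnf43, like Glul, is on the study's own list. In dm/- cells 0 of 42 other targets and 0 of 8 members passed, as did 0 of 13754 genes tested, with edgeR also at 0 of 13754 and 39 genes at an unadjusted p under 0.05 in edgeR.

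TGFβ, a cytokine that signals through SMAD proteins and drives epithelial cells towards a mesenchymal state, changed 6 of the 8 genes in at least 1 genotype. Of 56 tests 16 passed, 13 upward and 3 downward, or 28.6%, against 6.35% of all tests (3.11% upward and 3.24% downward). With no limit on size the count was 17 of 56, against 8.13%. By genotype, 2 of 8 members passed in fl/fl (6.25% of all genes), 1 in D164A/fl (3.38%), 1 in D164A/- (4.06%), 2 in ΔC/fl (7.74%), 2 in ΔC/- (6.55%), 3 in dm/fl (10.3%) and 5 in dm/- (6.12%). The treated libraries lay wholly above the untreated ones in 28 of 56 comparisons and wholly below in 12, against 28.7% and 28.5% of all comparisons. The mean response passed for 5 of 8 members, against 28.8% of all genes (14.6% upward and 14.2% downward): Ephb2, Glul, Tbx3 and Cd44 rose and Ccnd1 fell. The TGFβ response differed among genotypes for 5 of 8 members, against 18.3% of all genes. Of the other Wnt targets, 11 of 42 rose and 12 fell in the mean TGFβ response, 5 and 3 of the 15 feedback genes and 6 and 9 of the 27 tissue genes. Axin2 passed in 1 genotype, ΔC/fl, where it fell by 1.54 on the log2 scale (adjusted p = 0.041), a call lost with edgeR (adjusted p = 0.072), and its mean response was -0.35 (adjusted p = 0.18). The 2 experiments have their own untreated libraries, and whether a member responded more to TGFβ than to Wnt3a was not tested. Marker sums of other cell types also differed with TGFβ in some lines, those of the leukocyte genes from 59.3 to 75.4 CPM up to 166 to 217 CPM in fl/fl and from 60.6 to 80.6 CPM down to 17.1 to 27.1 CPM in ΔC/-, and that of the endothelial genes Pecam1, Cdh5 and Kdr from at most 0.191 CPM to 34.1 to 35.1 CPM in dm/fl, nearly all of it Cdh5. The sum of the fibroblast genes Col1a1, Col1a2, Pdgfra, Dcn and Lum went from 4.49 to 7.89 CPM up to 19.9 to 24.1 CPM in fl/fl, from 9.5 to 9.9 CPM up to 25.7 to 26.1 CPM in ΔC/- and from 6.75 to 7.57 CPM up to 20.5 to 27.1 CPM in dm/-, and from 170 to 310 CPM down to 75.5 to 102 CPM in dm/fl. Ptprc, Kdr and Lum were under 1 CPM there as elsewhere, and the part of these genes' cells in the results was not tested.

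**Figure D2:**
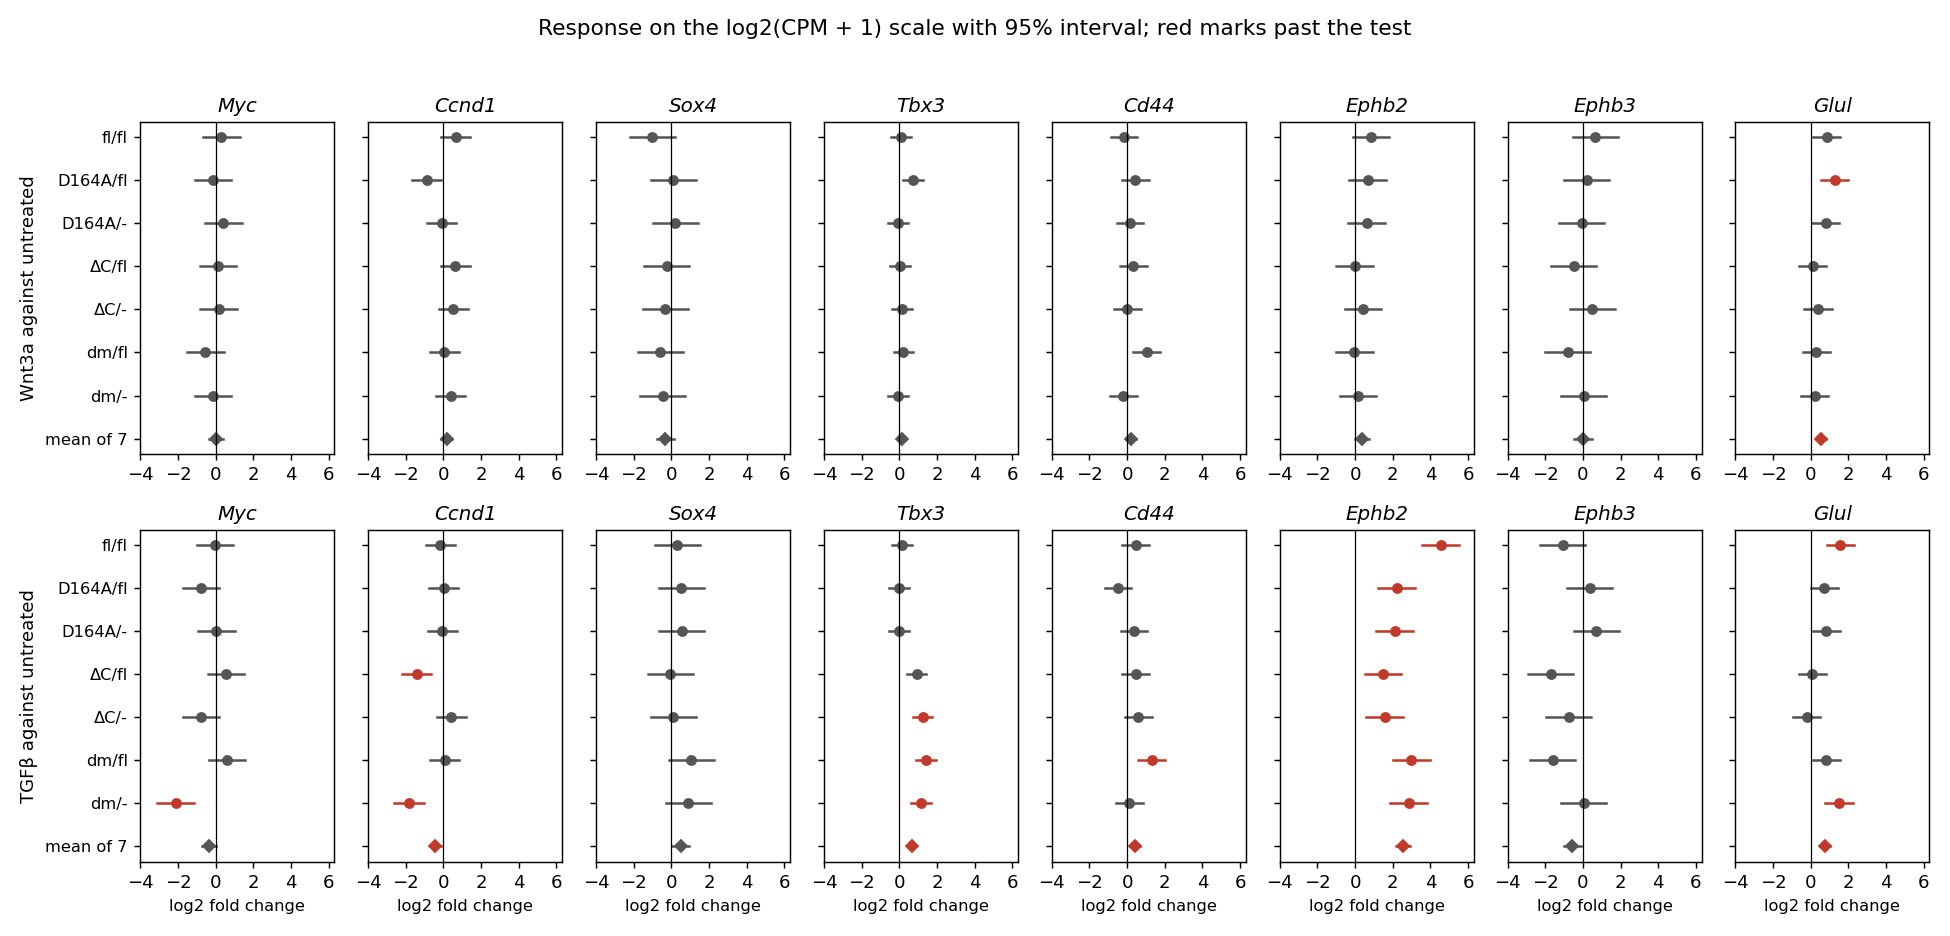
Response of the 8 genes to Wnt3a (upper row) and to TGFβ (lower row), as the log2 fold change against untreated cells on the horizontal axis with its 95% interval, for each genotype and for the mean of the 7 (diamond). Red marks passed the test: with Wnt3a these are Glul in D164A/fl and the Glul mean, and with TGFβ Ephb2 lies above 0 and passed in all 7 genotypes, from 1.49 in ΔC/fl to 4.55 in fl/fl.

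Ephb2 rose with TGFβ in all 7 genotypes, and its treated libraries were above the untreated ones of the same line and experiment throughout. In fl/fl cells it was at 3.42 and 2.32 CPM without and 102 and 77.4 CPM with TGFβ, a rise of 4.55 on the log2 scale (SE 0.48, adjusted p = 1.9e-08). It went from 2.08 and 2.77 CPM to 27.3 and 25.0 CPM in dm/fl (2.99), and from 26.9 and 21.5 CPM to 84.1 and 57.3 CPM in ΔC/fl (1.49, adjusted p = 0.040). ΔC/fl cells thus started from the highest level and dm/- cells from the lowest, 0.0917 and 0.106 CPM, which is 3 reads in each library, and reached 3.94 and 11.7 CPM (2.85). The D164A/fl cells went from 0.389 and 0.161 CPM to 5.12 and 4.66 CPM (2.21), the D164A/- cells from 0.425 and 0.267 CPM to 3.57 and 6.27 CPM (2.10), and the ΔC/- cells from 2.21 and 2.36 CPM to 7.29 and 10.6 CPM (1.58, adjusted p = 0.032). The added 1 CPM shrinks these changes where the starting level is low. The size differed among genotypes (moderated F test, adjusted p = 0.010, but 0.061 without fl/fl treated replicate 1 or untreated replicate 2), and the mean was 2.54 (SE 0.18, adjusted p = 6.3e-13). With edgeR on the reads the calls in ΔC/fl (adjusted p = 0.14) and ΔC/- (0.057) were lost. Leaving out any 1 of the 4 ΔC/fl libraries (log2 change 1.22 to 1.77, adjusted p of 0.061 to 0.36) or ΔC/- libraries (1.34 to 1.82, adjusted p of 0.067 to 0.27) also ended those calls, as did leaving out treated replicate 2 (1.77, 0.12) or untreated replicate 2 (2.02, 0.053) in D164A/-. Ephb2 and Glul are on the study's list of TGFβ-regulated genes affected by the same pair of mutations, which rests in part on these samples and is no independent evidence of their direction.

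Glul rose with TGFβ in fl/fl cells, from 14 and 15.8 CPM to 44.9 and 47.3 CPM (log2 change 1.57, adjusted p = 0.0026), and in dm/- cells, from 22.5 and 21.5 CPM to 88.2 and 46.6 CPM (1.5, adjusted p = 0.0047). In ΔC/- cells it was at 38.3 and 33.0 CPM without and 30.6 and 30.1 CPM with TGFβ, the reverse order, at -0.22 (adjusted p = 0.89). The response differed among genotypes (F test, adjusted p = 0.049), a result lost without any 1 of 25 of the 28 libraries (adjusted p up to 0.13), and the mean was 0.76 (SE 0.13, adjusted p = 3.8e-05). The dm/- call was lost without treated replicate 1 (1.05, adjusted p = 0.18) or untreated replicate 2 (1.47, 0.056). In D164A/- cells, at 0.116 and 0.305 CPM without and 0.749 and 1.61 CPM with TGFβ, Glul passed with edgeR (log2 change 2.43, adjusted p = 0.0052) and with a pseudocount of 0.1 (2.03, 0.0021) but not with the pseudocount of 1 (0.83, 0.27).

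Tbx3 rose with TGFβ in 3 of the 4 lines with its highest untreated levels. It went from 11 and 10.2 CPM to 25.8 and 27.1 CPM in ΔC/- (log2 change 1.24, adjusted p = 0.0013), from 13.0 and 15.5 CPM to 39.2 and 39.1 CPM in dm/fl (1.4, adjusted p = 0.00015) and from 7.82 and 9.30 CPM to 17.0 and 23.8 CPM in dm/- (1.15, adjusted p = 0.0030). In ΔC/fl it went from 9.76 and 7.94 CPM to 14.5 and 21.1 CPM, 0.92 at an adjusted p of 0.017, under the 2-fold limit. In D164A/fl it was at 1.70 and 1.99 CPM without and 1.56 and 2.10 CPM with TGFβ, in fl/fl at or under 0.184 CPM in all 4 libraries, and in D164A/- at 0 in all 4. The F test of a difference among genotypes gave an adjusted p of 0.0034, which was 0.25 with a pseudocount of 0.1 and 0.73 with edgeR. With edgeR the calls in ΔC/- (adjusted p = 0.081) and dm/- (0.096) were lost, and the dm/- call also with a pseudocount of 0.1 (0.062), without treated replicate 2 (0.92, 0.10) and without untreated replicate 1 (1.04, 0.061). Without treated or untreated replicate 1 of ΔC/fl, that line passed too (1.17, adjusted p = 0.019, and 1.05, 0.039).

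Myc and Ccnd1 fell with TGFβ in dm/- cells. Myc went from 441 and 287 CPM to 102 and 63.7 CPM (log2 change -2.13, SE 0.48, adjusted p = 0.0028), and Ccnd1 from 586 and 574 CPM to 134 and 196 CPM (-1.83, SE 0.38, adjusted p = 0.0012). Ccnd1 also fell in ΔC/fl cells, from 881 and 1668 CPM to 326 and 621 CPM (-1.43, adjusted p = 0.011). In both of these lines the treated libraries lay wholly below the untreated ones. The dm/fl cells, which carry the floxed allele, did not share this: they had Myc at 87.8 and 107 CPM without and 166 and 133 CPM with TGFβ, and Ccnd1 at 1011 and 1038 CPM without and 1121 and 1010 CPM with TGFβ. The dm/- response was lower than the dm/fl response by 2.73 for Myc (SE 0.67, adjusted p = 0.0068) and by 1.89 for Ccnd1 (SE 0.54, adjusted p = 0.022), and for Ccnd1 the ΔC/- response was 1.85 above that of ΔC/fl (SE 0.54, adjusted p = 0.048), where 4.34% of all such differences passed. The Myc difference held without each library. The Ccnd1 difference in dm was lost without any 1 of 7 of its 8 libraries (-1.61 to -1.96, adjusted p of 0.053 to 0.14). The Ccnd1 difference in ΔC was lost without any 1 of 6 of its 8 libraries (1.38 to 2.08, adjusted p of 0.072 to 0.32), with edgeR (0.074), with a pseudocount of 0.1 (0.063) and without the filter (0.058). In the other 6 genotypes Myc differed by -0.77 to 0.61. The Myc call was lost without treated replicate 2 (-1.79, adjusted p = 0.082) or untreated replicate 1 (-1.82, 0.075) of dm/-, and the Ccnd1 call in ΔC/fl without treated replicate 1 (-0.96, 0.34) or untreated replicate 2 (-0.97, 0.30).

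Cd44 rose with TGFβ in dm/fl cells, from 391 and 337 CPM to 985 and 821 CPM (log2 change 1.31, adjusted p = 0.0084), a call lost without treated replicate 1 (1.18, adjusted p = 0.095) or untreated replicate 2 (1.20, 0.084). Its mean response was 0.40 (SE 0.13, adjusted p = 0.020). Sox4 had a mean response of 0.49 (SE 0.22, adjusted p = 0.10) and passed in no genotype. Ephb3 passed in no genotype either. It was at 74.5 and 78.8 CPM without and 20.0 and 26.4 CPM with TGFβ in ΔC/fl cells (-1.70, adjusted p = 0.064), and at 42.5 and 55.2 CPM and then 13.1 and 18.1 CPM in dm/fl (-1.59, adjusted p = 0.074). The groups did not overlap in either line. With the GC trend removed Ephb3 passed as lower in both, at -1.68 and -1.48 (adjusted p of 0.00011 and 0.00039), and in fl/fl at -1.05 (0.016), and with the TGFβ libraries alone it also passed in all 3. Its mean response of -0.57 (SE 0.22, adjusted p = 0.053) passed in 6 of the 8 other ways of processing, at adjusted p from 1.9e-05 to 0.071 over all 8.

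**Figure D3:**
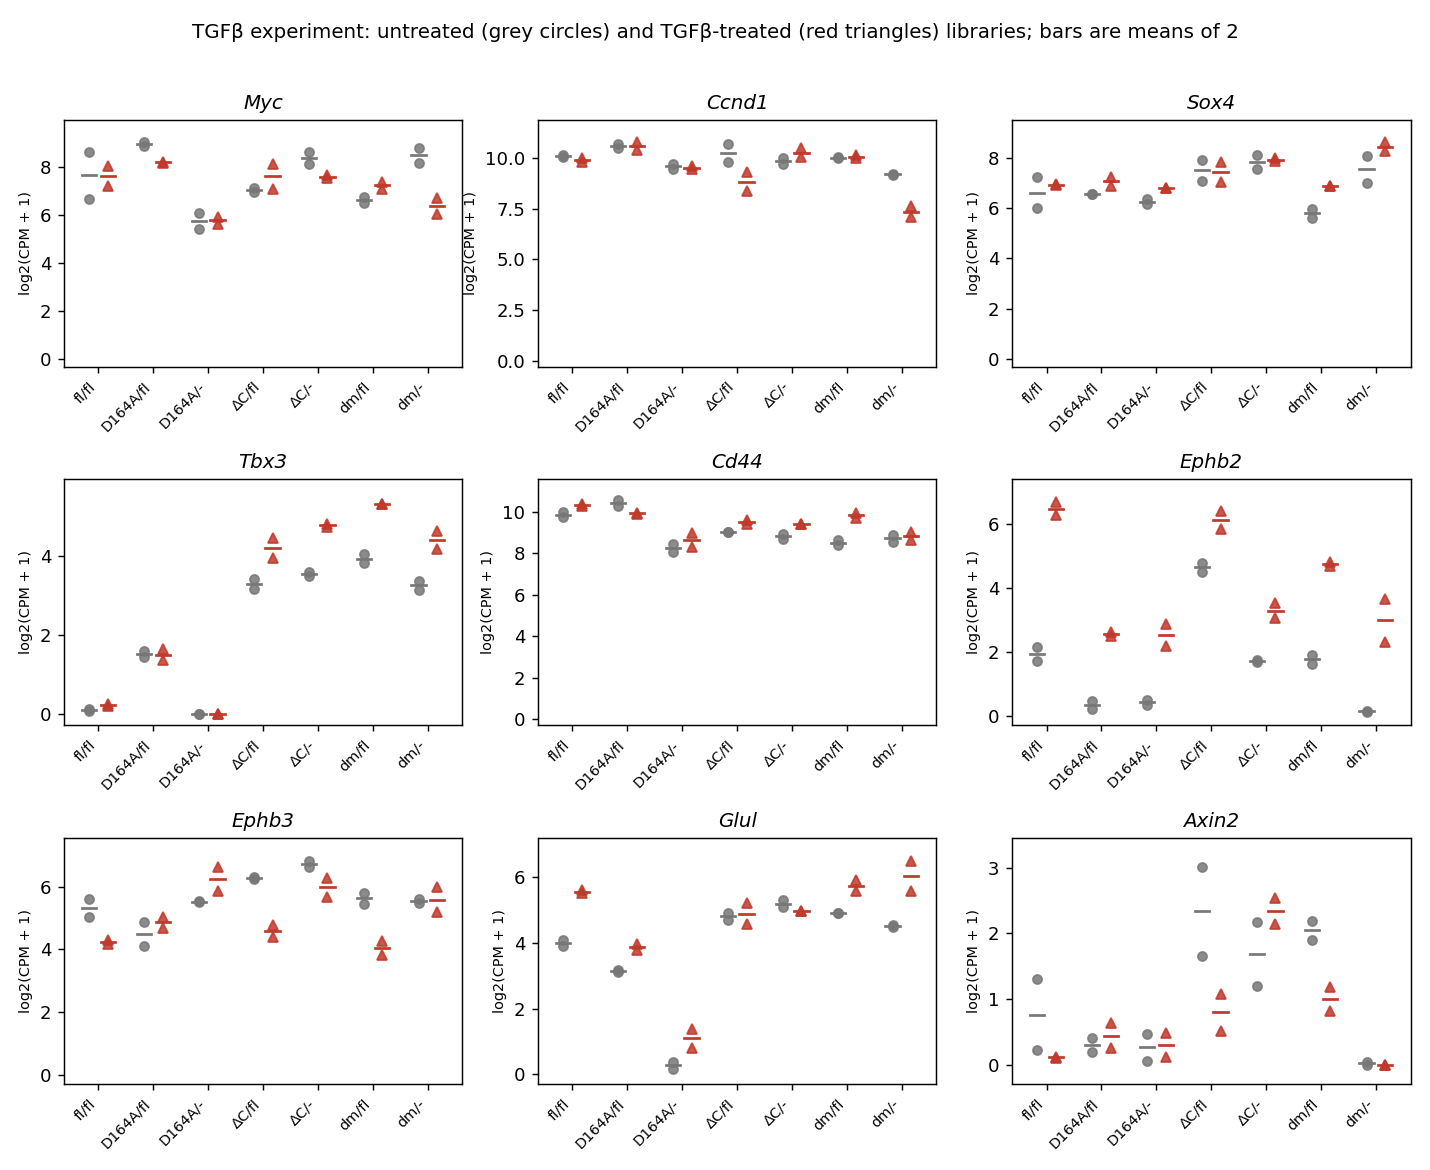
Level of the 8 genes and of Axin2 in the 28 libraries of the TGFβ experiment, as log2(CPM + 1) on the vertical axis and by genotype on the horizontal axis, with grey circles for untreated and red triangles for TGFβ-treated libraries and bars for the mean of 2. Ephb2 is higher with TGFβ in all 7 genotypes, Myc and Ccnd1 are lower in dm/-, and Tbx3 is at 0 in D164A/-.

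The levels of most members differed between the lines themselves. In untreated cells the moderated F test among the 7 genotypes passed for 6 of 8 members in the Wnt3a experiment (57.3% of all genes), all but Sox4 and Ephb3, and for 8 of 8 in the TGFβ experiment (62.4% of all genes). Which members passed in the Wnt3a experiment depended on the dm/fl library that stood apart. Without it Ccnd1 did not pass, while Sox4 and Ephb3 did. On the log2 scale the lines differed most in Ephb2, Tbx3 and Glul. In the Wnt3a experiment the mean of Tbx3 in untreated cells was 15.2 CPM in dm/fl, followed by ΔC/-, dm/-, ΔC/fl, D164A/fl and fl/fl, and lowest at 0.0365 CPM in D164A/-. Of the 6 neighbouring pairs in that order 2 differed, ΔC/fl above D164A/fl (log2 difference 0.82, adjusted p = 0.021) and D164A/fl above fl/fl (1.97, adjusted p = 2.9e-07), and the other neighbours did not differ beyond their spread.

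For Ephb2 the highest line was ΔC/fl in both experiments, with means of 25.9 and 24.2 CPM, and the lowest was dm/-, with 0.0395 and 0.0989 CPM. ΔC/fl differed from the next line in each, by 1.92 from dm/fl in the Wnt3a experiment (adjusted p = 0.0058) and by 2.71 from fl/fl in the TGFβ experiment (adjusted p = 4.8e-05). For Glul the lowest line was D164A/- in both, at 1.41 and 0.210 CPM, below D164A/fl, its neighbour in the order, by 2.27 (adjusted p = 3.4e-05) and 2.88 (adjusted p = 1.4e-07). Neighbours did not differ beyond their spread for Myc, Ccnd1, Sox4, Cd44 and Ephb3 in either experiment. Of all 21 pairs of genotypes, 4 differed for Myc, 3 for Ccnd1, 0 for Sox4, 8 for Cd44 and 1 for Ephb3 among untreated Wnt3a-experiment cells. Every such pair for Ccnd1 and Ephb3, and some of those for Cd44, involved dm/fl, whose mean includes the library that stood apart. Among those of the TGFβ experiment 11 differed for Myc, 2 for Ccnd1, 3 for Sox4, 9 for Cd44 and 2 for Ephb3. The share of such pairs over all genes was not counted, so these counts cannot be set against an ordinary gene. By the F test among untreated lines 57.3% of all genes differed in the Wnt3a and 62.4% in the TGFβ experiment. Myc was highest in dm/- at a mean of 308 CPM in the former experiment and in D164A/fl at 492 CPM in the latter, and lowest in D164A/- in both (80.6 and 53.4 CPM). Ccnd1 was lowest in dm/- in both, at 969 and 580 CPM, with the highest means in dm/fl (2235 CPM) and D164A/fl (1526 CPM). Cd44 was highest in fl/fl (1476 CPM) and D164A/fl (1351 CPM), Sox4 in dm/- (97.1 CPM) and ΔC/- (228 CPM), and Ephb3 in dm/fl (82.4 CPM) and ΔC/- (105 CPM). The dm/fl means of Ccnd1 and Ephb3 include the library that stood apart, at 2714 and 141 CPM, against 1756 and 24.2 CPM in the other replicate. On the log2 scale Ephb3 in the Wnt3a experiment was highest in D164A/-.

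Between lines with a deleted and a floxed second allele, 13 of 48 tests in untreated cells passed (27.1%), 11 of them lower in the deleted line, against 12.1% of all such tests. By experiment the counts were 5 of 24 with Wnt3a (9.31% of all tests) and 8 of 24 with TGFβ (14.8%). Tbx3 and Glul in D164A and Ephb2 in ΔC and dm were lower in the deleted line in both experiments. Tbx3 in untreated D164A/fl cells was at 3.17, 4.11, 1.70 and 1.99 CPM, and in D164A/- cells at 0.0729, 0, 0 and 0 CPM, the first pair of each from the Wnt3a experiment (adjusted p of 3.5e-07 and 3.6e-05). Glul in the same lines was at 8.64, 12.3, 8.03 and 7.72 CPM, against 0.875, 1.94, 0.116 and 0.305 CPM. D164A/- cells thus held little Glul and nearly no Tbx3. Ephb2 was at 10.7, 41.1, 26.9 and 21.5 CPM in untreated ΔC/fl cells and at 0.787, 1.91, 2.21 and 2.36 CPM in ΔC/- cells (log2 differences -3.28 and -2.93, adjusted p of 6.2e-06 and 2.3e-05). It was at 9.34, 2.34, 2.08 and 2.77 CPM in dm/fl cells against 0, 0.0791, 0.0917 and 0.106 CPM in dm/- cells (log2 differences -2.50 and -1.63, adjusted p of 0.00017 and 0.011), where the TGFβ experiment's call was lost without dm/fl replicate 2 (-1.49, 0.090), dm/- replicate 1 (-1.62, 0.065) or dm/- replicate 2 (-1.64, 0.062). In none of these 4 comparisons did the lines overlap. The fibroblast sum in untreated cells of the TGFβ experiment was 98.1 to 251 CPM in ΔC/fl against 9.5 to 9.9 CPM in ΔC/-, and 170 to 310 CPM in dm/fl against 6.75 to 7.57 CPM in dm/-, while Lum stayed under 1 CPM. In the Wnt3a experiment it was 43.5 to 96.6 CPM against 8.25 to 9.69 CPM and 62.3 to 78.8 CPM against 6.13 to 11 CPM. The leukocyte sum was 340 to 436 CPM in dm/fl against 77.8 to 88 CPM in dm/- in the TGFβ experiment and 292 to 533 CPM against 42.7 to 78 CPM in the Wnt3a experiment, with Ptprc under 1 CPM. In D164A/fl and D164A/- the fibroblast sums were 61.7 to 68.5 CPM and 95 to 105 CPM in the TGFβ experiment, and 54.3 to 67.8 CPM and 70.3 to 84.7 CPM in the other. The part of such cells in these differences was not tested.

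**Figure D4:**
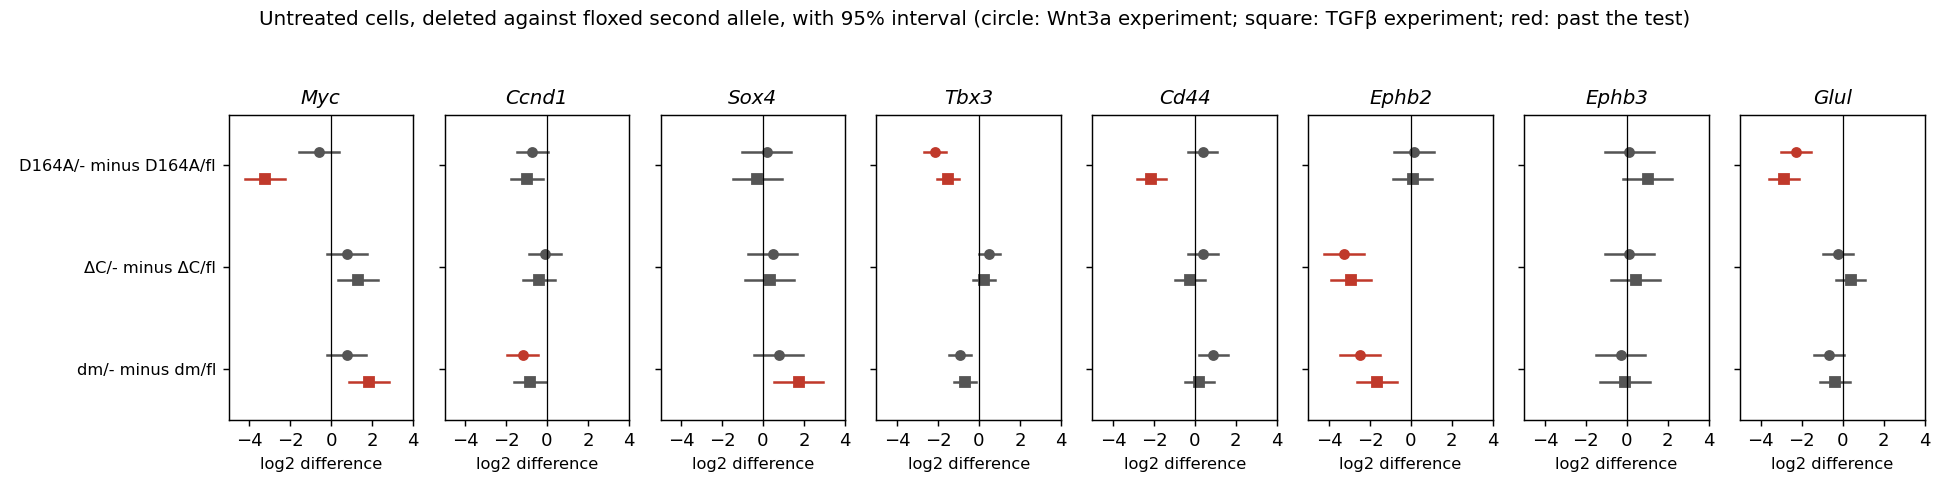
Difference between untreated cells with a deleted and with a floxed second allele, as the log2 difference on the horizontal axis with its 95% interval, for the 8 genes and the 3 mutant alleles, with circles for the Wnt3a and squares for the TGFβ experiment. Red marks passed the test: Tbx3 and Glul in D164A and Ephb2 in ΔC and dm lie left of 0 in both experiments.

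The remaining 5 calls came from 1 experiment each. In the TGFβ experiment Myc was lower in D164A/- than in D164A/fl, at 41.3 and 65.6 CPM against 517 and 468 CPM (log2 difference -3.21, adjusted p = 3.6e-06), while in the Wnt3a experiment the same lines were at 66.8 and 94.5 CPM against 143 and 102 CPM. Cd44 was lower in the same pair of lines, at 268 and 350 CPM against 1479 and 1223 CPM (-2.13, adjusted p = 1.8e-05), with 619 and 597 CPM against 615 and 355 CPM in the Wnt3a experiment. Myc was higher in dm/- than in dm/fl cells, at 441 and 287 CPM against 87.8 and 107 CPM (1.86, adjusted p = 0.0036), and so was Sox4, at 265 and 127 CPM against 48 and 61.9 CPM (1.74, adjusted p = 0.031). The Myc call was lost without dm/fl replicate 1 (1.72, adjusted p = 0.051) or dm/- replicate 1 (1.55, 0.074), and the Sox4 call without dm/fl replicate 1 (1.56, 0.19), dm/fl replicate 2 (1.91, 0.074) or dm/- replicate 1 (1.21, 0.33). In the Wnt3a experiment Ccnd1 was lower in dm/- than in dm/fl cells (-1.20, adjusted p = 0.021), at 791 and 1147 CPM against 2714 and 1756 CPM, which did not hold without the dm/fl library that stood apart (-0.88, adjusted p = 0.20), without dm/- replicate 1 (-0.93, 0.23) or with the Wnt3a libraries alone (adjusted p = 0.099). Without that library Myc (1.59, adjusted p = 0.035) and Sox4 (2.26, adjusted p = 0.0040) passed as higher in dm/-, and Ephb2 was still lower (-1.68, adjusted p = 0.026). The difference between the experiments was not tested.

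The patterns of the 8 genes over the 28 conditions were described by Pearson's r of the mean log2(CPM + 1) with every gene of at least 10 CPM on average, a description in which the 4 conditions of a line share its cells. The members did not move as a group: the highest r between any pair was 0.72, between Tbx3 and Glul, and the lowest was -0.71, between Ccnd1 and Sox4. Myc was most like Ppp1r15a (r = 0.88), Ube2g2 (0.87) and 5430416N02Rik (0.85), and Ccnd1 most like Umps (0.88), Tars2 (0.81) and 2310057M21Rik (0.81). Sox4 was most like Fbxl20 (0.87), Kansl1 (0.84) and Sema4c (0.84), and Tbx3 most like Cers6 (0.92), Lrrk2 (0.91) and Parp3 (0.89). Cd44 was most like Oxsr1 (0.84), Uspl1 (0.84) and Wdr36 (0.84), and Ephb3 most like Dexi (0.86), Prss8 (0.86) and 9130221H12Rik (0.84). Ephb2 was most like Ccn4 (0.91), itself on the list of other Wnt targets, Col5a3 (0.90) and Zeb1 (0.85), and Glul most like Axl (0.91), Celsr1 (0.91) and Tns3 (0.91). Axin2 was not among the 3 most similar genes of any member.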

How the data were processed

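The authors aligned reads to mm10 with STAR, kept unique hits, counted them on RefSeq exons with QuasR and scaled them in edgeR. The version of STAR is not given in the sources used here. The labels and the methods name different sequencers. The deposited signal per gene is in CPM, counts scaled to library size with a further factor per library. The size behind the scaling was 0.809 to 1.14 times the reads assigned to genes. All values (100%, within 0.001 reads) were whole multiples of the smallest value in their library, which returned the reads. Entrez IDs were matched to RefSeq symbols (20261 of 20314). Genes that reached 1 CPM in 2 or more samples were tested on log2(CPM + 1) with limma 3.58.1 (trend, R 4.3.3) in 1 fit to all 56 samples with 28 condition means (28 residual degrees of freedom) and Benjamini-Hochberg adjustment over 13754 genes, two-sided. The mean response and the F tests used an adjusted p of 0.05 without a fold limit. Other settings tried were median-of-ratios scaling, edgeR 4.0.16 quasi-likelihood on the whole reads, a pseudocount of 0.1, all genes unfiltered, only the samples of an experiment, a replicate block, a lowess trend on GC content removed (13089 genes have a GC value, 95.2%), and leaving out each library. The scripts were tested on simulated data. All 8 members were named with their values, Axin2 as a check, the other targets by the number of genotypes passed, and similar genes as the 3 of highest r. The members and lists were chosen with earlier results of these data known. Intervals at 95% cover the spread between these samples, and floors of 3 reads cover counting error only.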

Additional observations from a re-analysis of the deposited data

Results flagged for a closer look

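Of the 8 members, 5 differed among the 7 genotypes in their response to TGFβ, against 18.3% of all genes (moderated F test in limma, adjusted over all genes). They were Tbx3 (adjusted p = 0.0034), Ccnd1 (0.00877), Ephb2 (0.00995), Myc (0.025) and Glul (0.0489). The Tbx3 response was 1.15 to 1.4 on the log2 scale in ΔC/-, dm/fl and dm/-, while D164A/- cells had no reads of the gene in the TGFβ experiment. The Ccnd1 response was -1.83 in dm/- and -1.43 in ΔC/fl, against -0.18 to 0.42 in the other 5 genotypes. The Ephb2 response was 1.49 in ΔC/fl and 4.55 in fl/fl, the Myc response -2.13 in dm/- and 0.61 in dm/fl, and the Glul response -0.22 in ΔC/- and 1.57 in fl/fl. The Myc test was lost without dm/fl untreated replicate 1 (adjusted p = 0.052), dm/- untreated replicate 1 (0.14) or dm/- treated replicate 2 (0.14). The Tbx3 test was lost with a pseudocount of 0.1 (adjusted p = 0.25) and with edgeR on the reads (0.73). The Ephb2 test was lost without fl/fl treated replicate 1 or untreated replicate 2, and the Glul test without most single libraries. No group held enough samples for a test of single libraries that lie far from the rest.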

How the results depend on the processing

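No result that passed reversed, but 57 values that did not pass changed sign in an alternative. In dm/fl Sox4 and Ephb3 passed as lower with Wnt3a without untreated replicate 2 and were 0.92 and 0.45 without replicate 1. Ranges in brackets are over all libraries of the experiment left out in turn. The count of Wnt3a tests passed by the 8 genes, 1 of 56, was 0 with a pseudocount of 0.1, with only the samples of the experiment and with edgeR, and 0 to 5 without each library in turn, the 5 without dm/fl untreated replicate 2. The mean Wnt3a response of Glul, 0.55, was past the threshold in all but the fit to the experiment's own samples (0.55, adjusted p = 0.12), and that of Ephb2 passed with a pseudocount of 0.1 (0.80) and with the GC trend removed with the replicate block (0.37), as did Cd44 in the latter (0.21) and without dm/fl untreated replicate 2 [0.089 to 0.36]. For TGFβ, the mean of Ephb3 passed with median-of-ratios scaling (-0.56), the experiment's own samples and the replicate block (-0.57), the GC trend removed with or without the block (-0.63) and edgeR (-0.59), and without any 1 of 5 libraries [-0.62 to -0.51]. That of Sox4 passed with the experiment's own samples and the replicate block (0.49) and with block and GC together (0.43), and that of Myc with the block (-0.35), with block and GC (-0.41) and without fl/fl untreated replicate 2 [-0.49 to -0.22]. That of Tbx3 was 0.91 in edgeR and did not pass (adjusted p = 1). Without ΔC/fl treated replicate 1 or untreated replicate 2 the Ccnd1 mean did not pass [-0.50 to -0.37], nor the Cd44 mean without D164A/- treated replicate 2 [0.35 to 0.45]. The count of members whose TGFβ response differed among genotypes, 5, was 3 to 5 without each library. The cause of these changes was not tested.

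Same-numbered samples deviated together with r over 0.1 in 12 of 14 comparisons (-0.2 to 0.93), so the numbers do not pair the samples throughout. The exceptions were ΔC/- in the TGFβ experiment (-0.2) and dm/fl in the Wnt3a experiment (-0.068), which holds the library that stood apart. In the other Wnt3a comparisons r was 0.51 to 0.93. The main fit has no block, so its spread there includes these shared deviations. With the replicate block, the Wnt3a tests passed stayed at 1 and the TGFβ tests were 18 instead of 16, also with the numbers of ΔC/- crossed, a choice made after seeing the data. Ccnd1 then differed among genotypes in its Wnt3a response, so 1 of 8 members did instead of 0, likewise with the GC trend removed and without dm/fl untreated replicate 2, where it was Cd44 [0 to 1]. At an adjusted p of 0.05 with no limit on size, the Wnt3a tests were 4 of 56 with the block. The share of all genes that passed with the block is not given here, so these counts cannot be set against an ordinary gene. Of the 16 TGFβ calls, 12 held in all 8 alternatives, and 8 were lost without some library. Across 9381 genes the Wnt3a fold changes correlated with GC content at Spearman's rho of 0.81 in fl/fl, 0.84 in ΔC/- and -0.82 in dm/fl. It was 0.44 in dm/-, -0.43 in ΔC/fl, 0.18 in D164A/- and 0.0035 in D164A/fl. The main fit does not correct for this. The GC-corrected fits take out a lowess trend, and the correlation left after it is not given here. With 2 replicates, the 95% interval on the log2(CPM + 1) scale held a 2-fold rise in 29 of the 56 Wnt3a comparisons. That scale shrinks the changes of genes far under 1 CPM. A library left alone in its group is assumed to vary like the others. Over all genes, edgeR called 219 for the mean Wnt3a response against 484 in limma, 394 against 571 for Wnt3a in D164A/fl, and 3353 against 3967 for the mean TGFβ response.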
